A study of Mus musculus with 2 samples.

Results

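Of the 41214 genes in the deposited table, 9 are described here. They encode adaptor proteins that bind CBL ubiquitin ligases, namely Sh3kbp1, Cd2ap, Crk, Crkl, Grb2, Vav1 and Vav2, and the STS phosphatases Ubash3a and Ubash3b. They were taken by gene symbol, a rule that uses no measured value, and each symbol had 1 row; the set itself was proposed with earlier results of these data known. The sequenced RNA came from germinal centre B cells of C57BL/6 mice given 1000000000 sheep red blood cells by vein, with spleens taken on day 10. Cells were sorted as B220+Fas+GL7+CD138-, that is, as B lineage cells with germinal centre markers and without the plasma cell marker. The question the design addresses is how expression differs without Cbl and Cblb. One group was Cbl-/-Cblb-/- and the other wild type, with 1 library each. The labels name no promoter or Cre line and do not say whether animals were pooled.

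Cbl proteins are E3 ubiquitin ligases that attach to activated tyrosine kinases and receptors and mark them for internalisation or degradation. They work through adaptors, proteins that carry SH2 domains, which hold phosphotyrosine, SH3 domains, which hold proline-rich stretches, or both. CIN85 (Sh3kbp1) and CD2AP carry receptors bound by Cbl into the endocytic route. CRK and CRKL link phosphorylated Cbl to the Rap1 exchange factor encoded by Rapgef1. GRB2 links receptors to Ras activation, and VAV proteins are exchange factors for small GTPases that Cbl-b restrains. STS proteins bind both Cbl and ubiquitin and remove phosphate from kinases such as SYK and ZAP-70.

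The library with the label Cbl-/-Cblb-/-, called below the knockout-labelled library, held 38223328 reads in genes, and the wild-type-labelled library 26749540. Values are reads divided by the authors' size factor for each library, called normalized reads, and levels of different genes are compared as normalized reads per kilobase of the deposited gene length. With 1 library per group no difference has a replicate check and no test was possible, and every interval is a 95% interval that covers counting error only. The targeted genes, summed over each whole gene, were higher and not lower in the knockout-labelled library. Cbl had 1693 reads there and 118 in the wild-type-labelled library, and Cblb had 4061 and 700. The deleted exons are not given in the sources used here, and each direction below is one between labelled libraries. Columns were matched to libraries by the sample titles in their names. Whether labels or columns were exchanged was not tested, and an exchange would turn every direction and count given below. The name of the deposited table refers to a human cell line, although its genes are those of the mouse. All 13 germinal centre B cell markers examined were above 100 normalized reads in either library, S1pr2 among them. Fewer cells of a type and less RNA per cell cannot be told apart in such bulk samples.

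Grb2 and Vav1 were the most abundant of the 9 genes in both libraries and Ubash3a was near absent from both. Crkl and Ubash3b were far higher in the knockout-labelled library, Crk, Cd2ap and Vav2 were higher by smaller factors, and Grb2, Vav1 and Sh3kbp1 were nearly level. Of the 9 genes, 8 had 100 normalized reads or more in the higher library, the floor used throughout. Taking 1.5-fold as the threshold, 5 of these 8 genes were higher in the knockout-labelled library and 0 lower. The same threshold took in 38.6% of all 10443 genes over the floor as higher and 31.9% as lower. The median log2 ratio, computed as the knockout-labelled library over the wild-type-labelled library after adding 1 to each value, was 0.98 for the 8 genes and 0.15 for all genes. Ubash3b passed the floor only through the library in which it was higher, so some difference was built in. Its value in the other library was 95.9 normalized reads, just under the floor of 100. With a floor of 20 the counts were again 5 higher and 0 lower, beside 38.4% and 33.1% of all genes. At a threshold of 2-fold, 4 of the 8 genes were higher and 0 lower, beside 27.8% and 23.3% of all genes. Scaling to total reads in place of the authors' size factors gave 7 higher and 0 lower, beside 52.1% and 21.0% of all genes. The genes added were Grb2 (log2 ratio 0.64) and Vav1 (0.65).

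**Figure D1:**
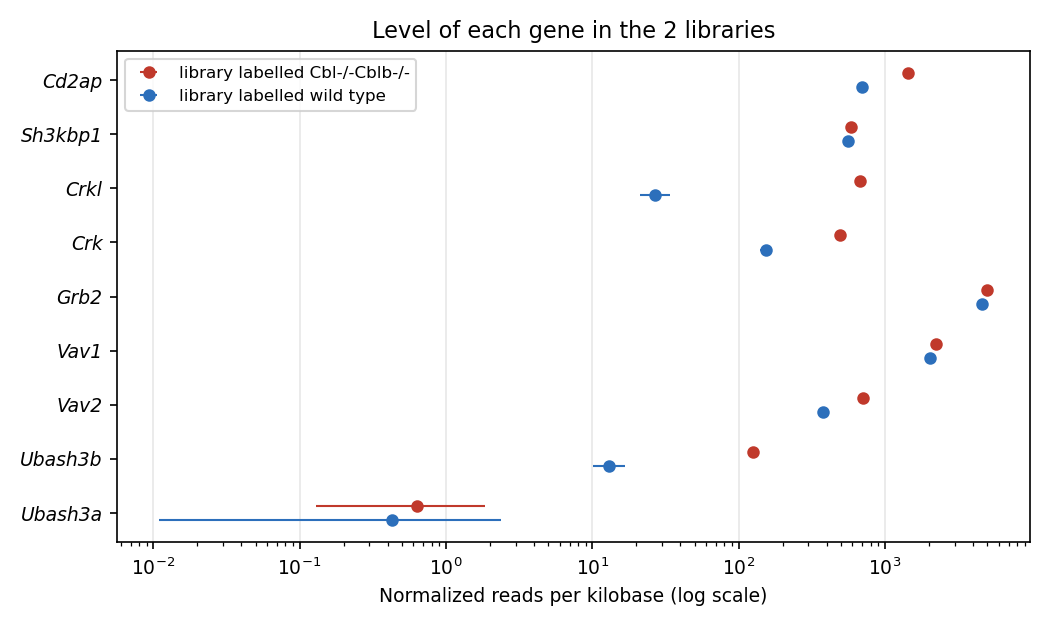
Level of the 9 genes in each library, as normalized reads per kilobase on a log axis, with 1 point per library and bars for the exact Poisson 95% interval of the reads. Crkl stood at 679 and 27.0 and Ubash3b at 125 and 13.1 in the knockout-labelled and wild-type-labelled libraries, while the Grb2, Vav1 and Sh3kbp1 points lie close together.

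Crkl showed the widest difference of the 9 genes. It had 3754 reads in the knockout-labelled library and 73 in the wild-type-labelled library, or 2624 and 104 normalized reads. The fold difference was 25.1 (19.9 to 32.1). Per kilobase, Crkl stood above 74.1% of genes over the floor in the first library and above 8.67% in the second. In the authors' deposited table its log2 fold change was 2.89 with a standard error of 1.08, an unadjusted p of 0.00748 and an adjusted p of 0.944. That comparison also rests on 1 library per genotype, and the table's fold changes are smaller than the ratio of its normalized values. Crkl lies on chromosome 16 (17451987 to 17487434, plus strand, GRCm38), and none of its exons overlaps another annotated gene. Its nearest neighbours over the floor did not share its ratio. Snap29, 21.2 kb away on one side, had a log2 ratio of 0.72, and Lztr1, 21.3 kb away on the other, had -0.28, against 4.64 for Crkl.

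Crk, the paralog of Crkl, went the same way by a smaller factor. It had 3319 and 506 reads, or 2320 and 724 normalized reads, in the knockout-labelled and wild-type-labelled libraries. This was 3.20-fold higher (2.92 to 3.53). Crk lies on chromosome 11 (75679259 to 75706908, plus strand). The proteins of these genes have the same layout of an SH2 domain followed by SH3 domains, and the main coding transcript of each has 3 exons, with 912 coding bases for Crk and 909 for Crkl. Their longest 3′ UTRs annotated in GENCODE M21 are also alike, at 3538 and 3642 bases.

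The promoter windows of Crkl and Crk are shown because these paralogs had the most unequal ratios of any pair, and that of Ubash3a because the gene was near absent. Each window runs from 250 bases before to 50 after the start in RefSeq on GRCm38.p6, all on the plus strand, at chr16:17451735-17452034 for Crkl, chr11:75679009-75679308 for Crk and chr17:31207816-31208115 for Ubash3a. Capitals mark matches on either strand. The GC box was searched as GGGCGG. The ETS motif was searched as CCGGAAG. The NF-Y box was searched as CCAAT. The cyclic AMP response element (CRE) was searched as TGACGTCA. Its shorter form TGACGT, which the full element holds on both strands, was searched too. The NRF1 motif was searched as GCATGCGC and the TATA box as TATAAA.
Crkl: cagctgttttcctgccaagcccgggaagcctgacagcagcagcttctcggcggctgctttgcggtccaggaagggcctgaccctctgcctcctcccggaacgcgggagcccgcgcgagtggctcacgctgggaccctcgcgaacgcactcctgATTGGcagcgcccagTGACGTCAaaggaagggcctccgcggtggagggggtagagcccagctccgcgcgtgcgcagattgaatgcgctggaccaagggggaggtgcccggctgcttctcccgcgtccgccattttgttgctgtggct
Crk: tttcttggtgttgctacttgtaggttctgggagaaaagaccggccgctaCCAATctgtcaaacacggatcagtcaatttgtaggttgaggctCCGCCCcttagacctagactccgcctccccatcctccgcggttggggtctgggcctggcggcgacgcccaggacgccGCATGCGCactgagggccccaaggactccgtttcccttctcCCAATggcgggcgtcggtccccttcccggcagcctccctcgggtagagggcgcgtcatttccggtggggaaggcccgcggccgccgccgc
Ubash3a: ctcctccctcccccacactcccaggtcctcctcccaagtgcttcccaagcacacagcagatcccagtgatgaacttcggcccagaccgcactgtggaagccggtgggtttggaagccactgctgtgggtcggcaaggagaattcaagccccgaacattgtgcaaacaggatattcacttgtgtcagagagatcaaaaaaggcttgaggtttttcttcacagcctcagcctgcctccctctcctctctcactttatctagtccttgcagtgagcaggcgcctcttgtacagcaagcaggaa
The Crkl window holds 1 full CRE, which 1.79% of all 32851 RefSeq windows hold (7.51% hold the shorter form), and 1 NF-Y box, which 37.4% hold. The Crk window holds 2 NF-Y boxes, 1 GC box (in 35.7% of windows) and 1 NRF1 match (in 2.71%). None of the searched letters is in the Ubash3a window. The Crkl and Crk windows have 27 CpG dinucleotides each and the Ubash3a window 6, against a median of 7 over all windows. These matches describe the sequence and say nothing of which factors bind there.

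Within a library the balance between Crkl and Crk does not depend on the scaling between libraries. Crkl made up 58.1% (56.9 to 59.2) of the pair's reads per kilobase in the knockout-labelled library and 15.0% (12.0 to 18.4) in the wild-type-labelled library. The odds of a read of the pair coming from Crkl were 7.84 times as high (6.09 to 10.2) in the former. Crkl was thus the more abundant paralog in one library and the less abundant in the other, also by plain reads (53.1% and 12.6%) and per kilobase of GENCODE M21 exon length (51.5% and 11.9%). The summed level of the pair was 1170 and 180 normalized reads per kilobase, which was 6.50-fold higher.

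CD2AP and CIN85 are related scaffolds, each with SH3 domains that bind Cbl, and Cd2ap was the one with the higher ratio. Cd2ap had 11146 and 2640 reads, or 7791 and 3777 normalized reads, in the knockout-labelled and wild-type-labelled libraries. It was 2.06-fold higher (1.98 to 2.15). Sh3kbp1 had 8408 and 3963 reads, or 5877 and 5670 normalized reads. Its fold difference of 1.04 had an interval of 0.998 to 1.08, which includes no difference at this depth. Cd2ap made up 71.3% (70.7 to 71.8) of this pair's reads per kilobase in the knockout-labelled library and 55.5% (54.3 to 56.7) in the wild-type-labelled library. Cd2ap is on chromosome 17 (42792951 to 42876665, minus strand) and Sh3kbp1 on chromosome X (159627272 to 159978069, plus strand). The deposited length of Cd2ap is 5399 bases, and its exons cover 15864 bases in the newer GENCODE M21, so its level per kilobase depends on the gene model. By plain reads its share of the pair was 57.0% and 40.0%, and per kilobase of M21 exon length 45.8% and 29.8%. Which of these genes is the more abundant therefore changes with the length used, while the share of Cd2ap is higher in the knockout-labelled library under each. The deposited length of Sh3kbp1, 10100 bases, is the same in both.

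Grb2, the hub that joins phosphorylated receptors to SOS and Ras and also binds Cbl through its SH3 domains, had the highest level of the 9 genes. It had 20924 and 9389 reads, or 14625 and 13433 normalized reads, in the knockout-labelled and wild-type-labelled libraries. The fold difference was 1.09 (1.06 to 1.12), larger than counting error and under the 1.5-fold threshold. Per kilobase, Grb2 stood above 97.8% and 94.1% of genes over the floor. It lies on chromosome 11 (115644045 to 115708597, minus strand).

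Set against Grb2 within each library, per kilobase, the other genes fell into those with a stable share and those without. Vav1 stood at 44.2% of Grb2 in the knockout-labelled library and 43.8% in the wild-type-labelled library. Sh3kbp1 stood at 11.6% and 12.2%. By contrast Crkl stood at 13.5% and 0.587%, Crk at 9.78% and 3.32%, and Ubash3b at 2.49% and 0.284%. Cd2ap and Vav2 lay between, at 28.8% against 15.2% and at 14.2% against 8.18%.

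Vav1, the haematopoietic member of its family, was more abundant than the widely expressed Vav2. Vav1 had 11709 and 5204 reads, or 8184 and 7445 normalized reads, in the knockout-labelled and wild-type-labelled libraries, a 1.10-fold difference (1.06 to 1.14). Vav2 had 7024 and 1821 reads, or 4910 and 2605 normalized reads, and was 1.88-fold higher (1.79 to 1.99). Vav1 kept the larger part of the pair in both libraries. Vav2 made up 24.2% (23.7 to 24.8) of the pair per kilobase in the knockout-labelled library and 15.7% (15.0 to 16.5) in the wild-type-labelled library, or 37.5% and 25.9% by plain reads. Vav1 lies on chromosome 17 (57279100 to 57328031, plus strand) and Vav2 on chromosome 2 (27262104 to 27427033, minus strand). The remaining family gene, Vav3, had 98 and 8 reads and did not reach the floor.

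The STS phosphatases were unequal in level. Ubash3b, which encodes the broadly expressed STS-1, had 1307 reads in the knockout-labelled library and 67 in the wild-type-labelled library, or 914 and 95.9 normalized reads. The fold difference was 9.53 (7.45 to 12.4). In the authors' deposited table its log2 fold change was 2.21 with a standard error of 1.05, an unadjusted p of 0.0347 and an adjusted p of 0.944. It is on chromosome 9 (41011098 to 41161697, minus strand). Ubash3a, on chromosome 17 (31207873 to 31246892, plus strand), encodes STS-2, which is best known from T cells. It had 3 reads and 1 read, which is at or under the limit of 3 reads set for calling a fold, so none is given. Its share of the STS pair was 0.503% (0.104 to 1.46) of reads per kilobase in the knockout-labelled library and 3.18% (0.0819 to 15.9) in the wild-type-labelled library, and these intervals overlap. Of 16 T cell markers, 14 were under the floor in both libraries. Genes of the T cell receptor complex were near 0, with 5 and 0 reads for Cd3e, 2 and 15 for Cd3d and 4 and 11 for Cd3g. The kinase gene Lck had 6160 and 3865 reads and the adaptor gene Lat 106 and 219.

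**Figure D2:**
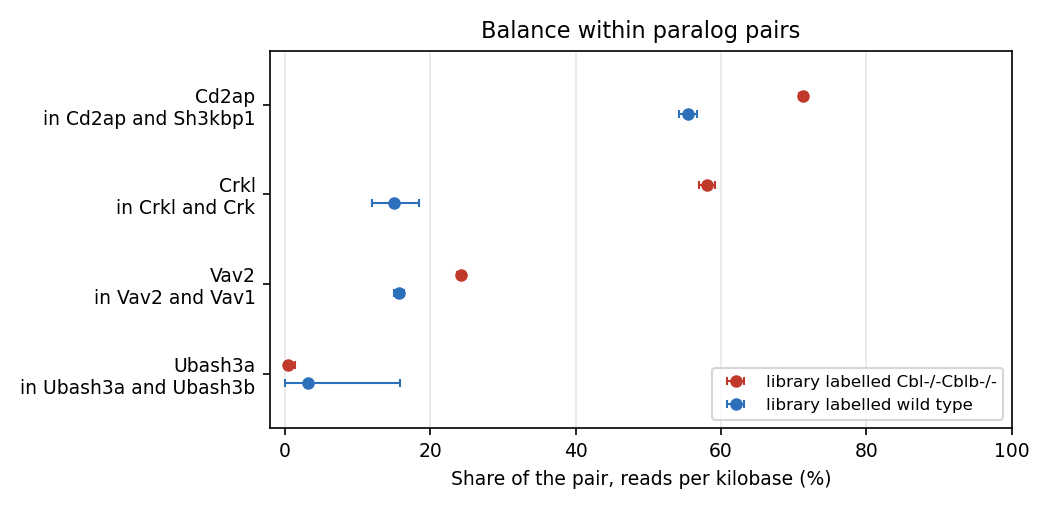
Share of 1 gene in each paralog pair, in percent of the pair's normalized reads per kilobase, with 1 point per library and bars for exact Clopper-Pearson 95% intervals of the reads. Crkl moves from 15.0% to 58.1% between the wild-type-labelled and knockout-labelled libraries, Cd2ap from 55.5% to 71.3% and Vav2 from 15.7% to 24.2%, while Ubash3a stays under 4% with overlapping intervals.

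In level per kilobase the order in the knockout-labelled library was Grb2 (5016), Vav1 (2219), Cd2ap (1443), Vav2 (710), Crkl (679), Sh3kbp1 (582), Crk (490), Ubash3b (125) and Ubash3a (0.630). The intervals of Vav2 (693 to 727) and Crkl (658 to 701) overlap, and no other neighbours in that order do. In the wild-type-labelled library the order was Grb2 (4606), Vav1 (2019), Cd2ap (700), Sh3kbp1 (561), Vav2 (377), Crk (153), Crkl (27.0), Ubash3b (13.1) and Ubash3a (0.430), with no overlap between neighbours. The first 3 places and the last 2 were held by the same genes in both libraries. Crkl stood in the seventh place in the wild-type-labelled library and in the fifth in the other. The third place of Cd2ap rests on its deposited length: per kilobase of M21 exon length it had 491 and 238 normalized reads, the sixth and the fifth place, and Crkl, with 520 and 20.7, kept the fifth and the seventh.

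The ratio between these libraries moved with gene length over all genes, and the 9 genes differ in length from 2916 bases for Grb2 to 10100 for Sh3kbp1. Each ratio was therefore set beside the median of the 500 genes over the floor nearest in deposited length. For Crkl that median was 0.33 (quartiles -0.54 and 1.03) on the log2 scale, against its own 4.64, which left 4.31, or 19.9-fold. For Ubash3b, at 3.24, it was 1.04 (0.36 to 1.66), which left 2.20, or 4.58-fold. Crk, at 1.68, stood 2.29-fold above genes of like length. The other ratios lay between the quartiles of like-length genes, apart from Sh3kbp1. Sh3kbp1, at 0.05, stood beside a median of 1.34 (0.67 to 2.04), so it was 1.29 below genes of its length. Cd2ap was 0.32 above, Grb2 0.26 above, Vav1 0.10 below and Vav2 0.12 below the median of theirs. After this centring 3 of the 8 genes passed the 1.5-fold threshold as higher and 1 as lower, beside 29.8% and 29.6% of all genes. The part of length in these differences was not tested.

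**Figure D3:**
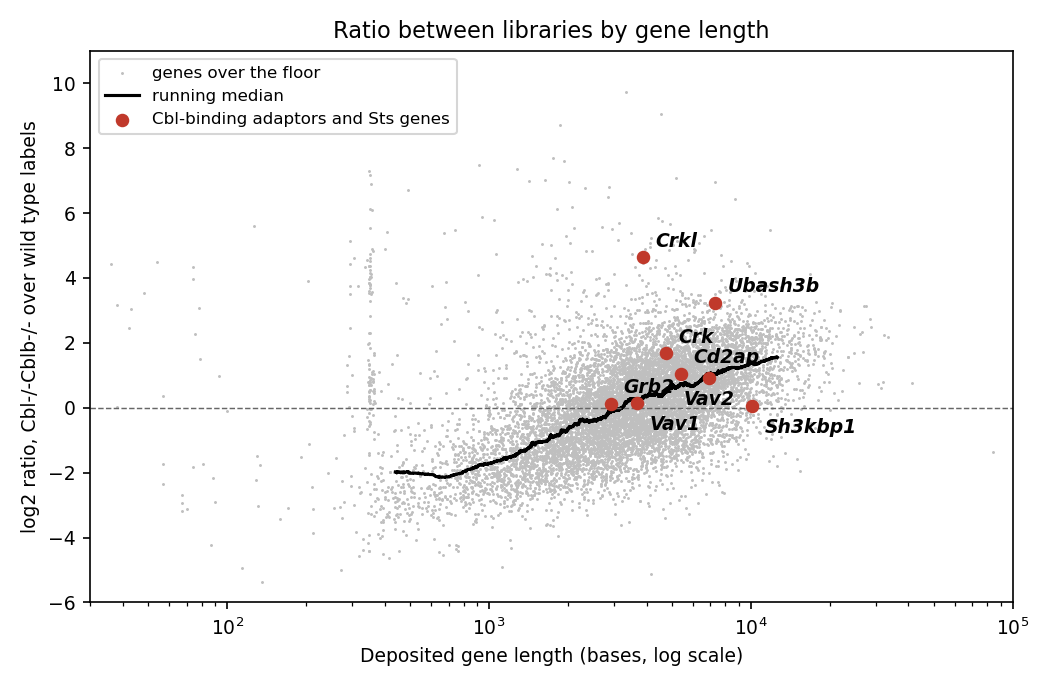
Log2 ratio of normalized reads between the knockout-labelled and wild-type-labelled libraries against deposited gene length in bases on a log axis, for the 10443 genes over the floor (grey), with a running median of 501 genes (black) and the 8 named genes over the floor (red). Crkl and Ubash3b lie above the running median, Sh3kbp1 lies below it at 10100 bases, and Vav1 and Vav2 lie near it.

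The paralog pairs differed in how they stood to this trend. Vav2 exceeded Vav1 by 0.78 on the log2 scale, and genes of their lengths, 6915 and 3688 bases, differed by 0.80. Cd2ap exceeded Sh3kbp1 by 0.99, whereas genes of their deposited lengths differed by -0.61. Crkl exceeded Crk by 2.96, whereas genes of their lengths, 3863 and 4730 bases, differed by -0.16. With exon lengths of GENCODE M21 in place of the deposited ones, the differences left after centring were -0.10 for Vav2 and Vav1, 0.55 for Cd2ap and Sh3kbp1 and 2.86 for Crkl and Crk. Centred on genes of like 3′ UTR length, described next, they were -0.62, 1.24 and 2.94, so Vav2 then stood below Vav1.

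The longest 3′ UTR annotated in GENCODE M21, itself a part of gene length, was another feature along which ratios ran. In 8 groups of 9641 protein-coding genes, the median log2 ratio was -1.26 with 3′ UTRs of 3 to 265 bases and 1.17 with those of 3337 bases or more. Medians ran with coding length as well, from -1.27 at 111 to 591 bases to 1.42 at 3132 bases or more. By coding length Crk (912 bases) and Crkl (909) belong to the group of 861 to 1101 bases, with a median of -0.20. Vav1, with 330 bases, has the shortest 3′ UTR of the 9 genes and Ubash3a, with 5517, the longest. The deposited lengths of Ubash3a (3328 bases), Crkl (3863) and Cd2ap (5399) are under their M21 exon lengths (11239, 5042 and 15864). Part of the M21 3′ UTRs of these genes may therefore lie outside the models in which reads were counted. Among the 8 genes over the floor, Cd2ap, Crk, Crkl, Ubash3b and Sh3kbp1 have long 3′ UTRs of 3380 to 4906 bases. Sh3kbp1, with 4906 bases, had the lowest ratio of the 8 genes. Genes nearest to Crkl in 3′ UTR length had a median of 0.98 and those nearest to Vav1 -0.76. Centred on such genes, Crkl stood at 3.66, Ubash3b at 2.25, Vav1 at 0.90, Crk at 0.72 and Sh3kbp1 at -1.19. By the 1.5-fold threshold this left 4 of the 8 genes higher and 1 lower, beside 29.9% and 30.7% of all genes. Centring on length and level gave 5 and 1, beside 28.8% and 30.9%, with Grb2 (0.63) now past the threshold and Vav2 (0.05) no longer. Centring on the exon length in GENCODE M21 gave 3 and 1, beside 29.8% and 29.9%.

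**Figure D4:**
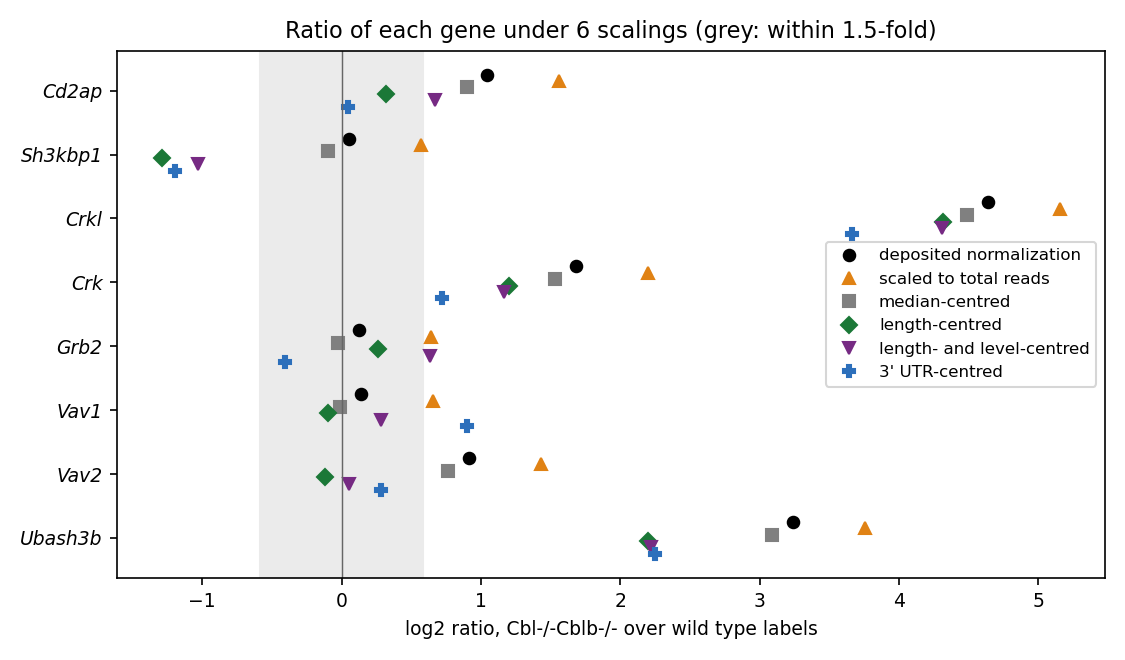
Log2 ratio of each of the 8 genes over the floor between the knockout-labelled and wild-type-labelled libraries under 6 scalings, 1 symbol per scaling, with the grey band marking ratios within 1.5-fold. Crkl, Ubash3b and Crk lie right of the band under each scaling, and Sh3kbp1 lies within the band or to its left.

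Genes that work beside these adaptors are given as 6 lists, each to be read against all genes, of which 38.6% were higher and 31.9% lower by the 1.5-fold threshold, and 29.8% and 29.6% after centring on length. Of 24 endocytic partners of CIN85 and CD2AP, 22 were over the floor, 9 were higher in the knockout-labelled library (40.9%) and 6 lower (27.3%), close to the shares of all genes. After centring on length 4 were higher and 7 lower. Their median was 0.22, which was negative (-0.22) after centring on length. Itsn2, an endocytic scaffold, had 11471 and 561 reads (9.99-fold, 9.18 to 10.9), Capza1, a subunit of the actin capping protein that these scaffolds bind, was 4.05-fold higher (3.79 to 4.33), and Bin1, a membrane-bending protein gene, had a log2 ratio of -2.29. Exons of other genes overlap 13.9% of the exon bases of Itsn2, 4.39% of Capza1 and 6.22% of Bin1, and the strand setting of the counting is not given.

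Of 13 partners of CRK proteins 9 were over the floor, 5 higher (55.6%) and 0 lower, beside 38.6% and 31.9% of all genes, with a median of 0.73. After centring on length 4 were higher (44.4%) and 3 lower (33.3%), beside 29.8% and 29.6%, with a median of 0.56. Abl2 had 4965 and 496 reads, a log2 ratio of 2.29 (length-centred 0.95), and Abl1 had 2.08 (0.67). These encode ABL tyrosine kinases, which phosphorylate CRK proteins. Nedd9, a docking protein gene, stood at 1.95 (1.48). Rapgef1, the Rap1 exchange factor gene, had 13952 and 10161 normalized reads and a log2 ratio of 0.46 that was -0.59 after centring on length. The Rap1 genes stood at 0.13 (length-centred 0.56) for Rap1a and 1.04 (1.64) for Rap1b.

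Of 20 partners of GRB2 in B cells 19 were over the floor, 8 higher (42.1%) and 6 lower (31.6%), close to the 38.6% and 31.9% of all genes, with a median of 0.45 that was -0.11 after centring on length. Pik3ap1, which encodes the PI3 kinase adaptor BCAP, stood at 3.54 (length-centred 3.90). Sos1, the Ras exchange factor gene, stood at 2.42 (1.19) with 1995 and 182 reads, and Hras at -2.38 (-2.62) with 1262 and 3222. Of the GRB2 relatives, Grap had 7614 and 9105 reads and a log2 ratio of -1.29 (-0.42), and Grap2 had 1036 and 166 reads and 1.60 (1.64).

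Of 16 partners and targets of VAV proteins 14 were over the floor, 4 higher (28.6%) and 5 lower (35.7%), beside 38.6% and 31.9% of all genes, with a median of 0.10 that was 0.05 after centring on length and -0.05 when centred on the median of all genes. Rhog (-2.08, length-centred -0.76) and Arhgdib (-1.74, -0.89) were the lowest, and Dock8, a CDC42 exchange factor gene, was the highest (1.70, 0.60).

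Of 14 tyrosine kinase and phosphatase genes of the antigen receptor 13 were over the floor, 8 higher (61.5%) and 2 lower (15.4%), beside 38.6% and 31.9% of all genes, with a median of 0.68. After centring on length 4 were higher (30.8%) and 0 lower, beside 29.8% and 29.6%, with a median of 0.23. Syk, whose product is dephosphorylated by STS proteins, had 26637 and 15756 normalized reads, a log2 ratio of 0.76 that was -0.51 after centring on length. Ptprc (2.35, 0.79), which encodes the phosphatase CD45, Ptpn22 (1.56, 1.62) and Ptprj (1.41, 0.19) had the largest ratios.

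Of 16 other adaptors that bind Cbl proteins 10 were over the floor, 7 higher and 2 lower, beside 38.6% and 31.9% of all genes, with a median of 1.08. After centring on length 4 were higher and 2 lower, beside 29.8% and 29.6%, with a median of 0.18. Pik3r1, the main regulatory subunit gene of PI3 kinase, stood at 2.34 (1.01), the SH2 and SH3 adaptor gene Nck2 at 1.18 (0.77) and Pstpip1, an actin-linked adaptor gene, at -1.79 (-2.08). In the Cbl family itself, Cbl stood at 2.80 (2.18) and Cblb was 2.83-fold higher (2.62 to 3.08). Cblc did not reach the floor and went the other way. It had 24 reads in the knockout-labelled library and 61 in the wild-type-labelled library, a log2 ratio of -2.31. The related Cbll1 stood at 0.68 (0.34), with 17.6% of its exon bases overlapped by another gene. Of the 3 family genes over the floor, 3 were higher and 0 lower, beside 38.6% and 31.9% of all genes. Centred on GENCODE M21 exon length 1 was higher and 0 lower, beside 29.8% and 29.9%. Centred on 3′ UTR length it was also 1 and 0, beside 29.9% and 30.7%.

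**Figure D5:**
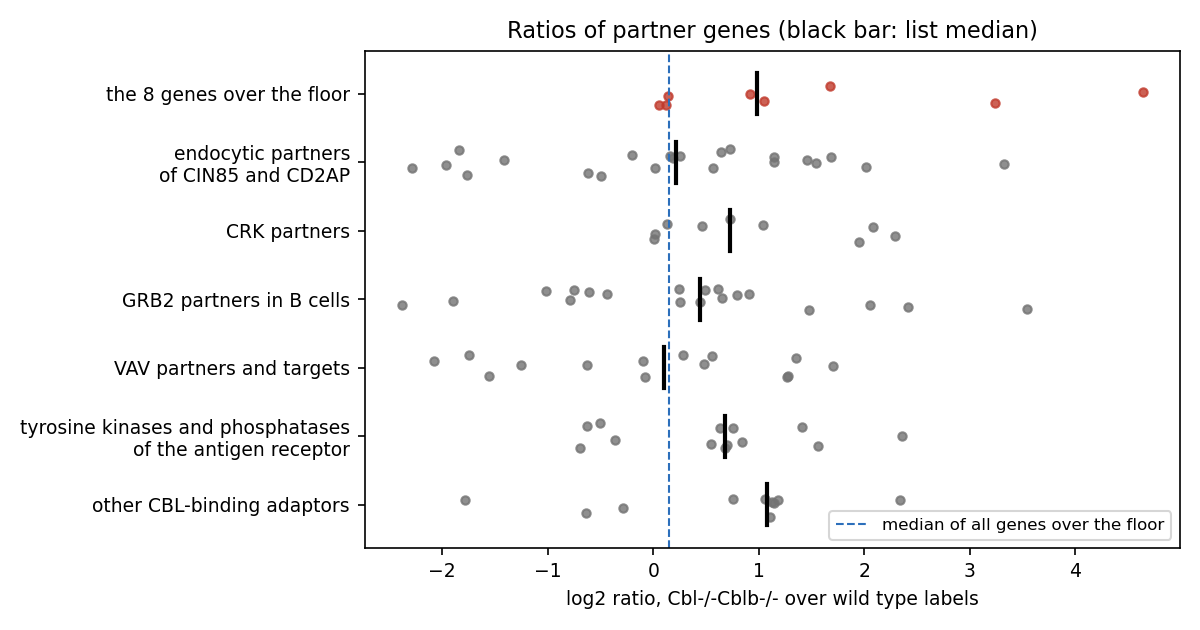
Log2 ratios between the knockout-labelled and wild-type-labelled libraries for the 8 genes over the floor (red) and for genes of 6 partner lists over the floor (grey), 1 point per gene, with a black bar at each list median and a dashed line at the median of all genes (0.15). Points of every partner list except the partners of CRK proteins lie on both sides of 0, and Crkl, at 4.64, is the highest point drawn.

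Markers of other cells were examined because several of the 9 genes are used outside B cells. Of 16 T cell markers 2 were over the floor, Lck and Lat, and the other 14 summed with Lat to 302 and 522 normalized reads in the knockout-labelled and wild-type-labelled libraries. Of 9 macrophage markers 7 were over the floor, with summed values of 1590 and 1937. These sums join genes that went opposite ways. Csf1r (352 and 250), Axl (235 and 100) and Mrc1 were higher in the knockout-labelled library, as were Lyz2 and Mertk, which were under the floor. Cd68 (316 and 755), C1qa (128 and 373), C1qb and C1qc were lower there. The 6 plasma cell markers summed to 32123 and 29738, of which Igj alone held 22154 and 20630. Prdm1 (244 and 114), Irf4 (2290 and 1272), Sdc1 and Xbp1 were higher in the knockout-labelled library, and Slc3a2 (2508 and 3318) was lower. The 7 erythroid markers summed to 64.3 and 690, of which Hbb-bt alone held 30.8 and 594. The 6 of platelets summed to 26.6 and 67.2 and the 7 of granulocytes to 13.3 and 7.15. Of 5 follicular dendritic and stromal markers 1, Pecam1, was over the floor. It held 1729 and 1036 of the list's sums of 1735 and 1037, so those sums describe Pecam1 and not the list. The part of such cells in the levels of Ubash3b and Crkl was not tested.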

How the data were processed

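RNA of sorted splenic germinal centre B cells was made into TruSeq libraries and sequenced in pairs of 50 bases, per the labels' protocols. Groups follow the genotype label, with 1 library each. The tools in the submitters' processing notes are featureCounts, TopHat2 2.0.10 and DESeq2 1.4.5, with the build GRCm38 and no stated roles. Not given in the sources used here are the annotation and the treatment of strand and of multiply matching reads.

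The normalized signal columns were deposited by the authors as gene reads relative to library size, per the file headers. Dividing by the smallest positive value of each library gave whole reads for 100% of values in both libraries (tolerance 0.001 read), with size factors of 1.43 and 0.699. The deposited FPKM columns were not used. The base mean signal, log2 fold change, standard error, test score and p-values are the authors' own, per the file headers, and their p-values rest on no replicates. A count test on the recovered whole reads (edgeR) needs residual degrees of freedom, of which 2 libraries in 2 groups leave none. It was therefore not run and gave no calls.

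Log2 ratios used the deposited normalized values with a pseudocount of 1, which understates differences of low genes, and kept genes with 100 normalized reads or more in either library. Intervals are exact conditional for ratios and odds, exact Poisson for levels and Clopper-Pearson for shares. Reads carry no molecular identifiers, so intervals cover counting error only. Length-centred ratios subtract the median of the 500 genes over the floor nearest in length. The step was tried on simulated counts with a planted linear length trend and counting error only. That setting is simpler than these data, so it does not show how well the centring works here. GENCODE M21 on GRCm38 gave positions, overlaps and 3′ UTRs and matched 99.5% of genes over the floor. It is newer than the annotation behind the deposited lengths. RefSeq promoter windows matched all 9 genes. Of those printed, the start used by RefSeq is the M21 gene start for Crk, 2 bases upstream of it for Crkl (-2) and 193 downstream for Ubash3a. Protein sequences were not used here. Python 3.11.15, numpy 2.4.6, pandas 2.3.3 and scipy 1.17.1 were used.

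The members and partner lists were chosen with earlier results of these data known. From each list up to 3 genes over the floor with the largest absolute log2 ratio are named. The genes Rapgef1, Rap1a, Rap1b, Syk, Vav3, Cblc, Snap29, Lztr1 and the printed windows and motifs were chosen after values were seen. With 2 libraries each gene gives 1 ratio, so no genes of like pattern are named.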

Additional observations from a re-analysis of the deposited data

How the results depend on the processing

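No paired analysis was possible because each group holds 1 library, and no library could be left out. Scaling to total reads raised the median log2 ratio of all genes from 0.15 to 0.67 and the shares of all genes called to 52.1% higher and 21.0% lower, from 38.6% and 31.9%; 7 of the 8 genes over the floor were then higher and 0 lower. Of these 8 genes, 3 were higher and 1 lower when centred on deposited length or on GENCODE M21 length, 5 and 1 when centred on length and level, and 4 and 1 when centred on 3′ UTR length, against 5 and 0 as reported. The genes counted as higher were not the same in each setting. Grb2 and Vav1 were added with total reads, Grb2 with length and level, and Vav1 with 3′ UTR length. The M21 length and 3′ UTR settings were chosen after seeing the data. Of the 5 genes past 1.5-fold as reported, Vav2 turned to -0.12 when centred on deposited length and Cd2ap to -0.55 with M21 length, and the cause was not tested. The 3 genes within 1.5-fold also changed sign: Sh3kbp1 to -1.29 (length), -1.03 (length and level), -1.10 (M21 length), -1.19 (3′ UTR) and -0.10 (median of all genes), Grb2 to -0.40 (3′ UTR) and -0.03 (median), and Vav1 to -0.10 (length) and -0.01 (median). Over the scalings and pseudocounts tried, Crkl ranged from 3.66 to 5.15, Ubash3b from 2.20 to 3.75 and Crk from 0.72 to 2.20. Sh3kbp1 ranged from -1.29 to 0.57. Pseudocounts of 0.5 and 10, floors of 20 or none and the sum over a symbol's rows moved none of the 8 genes across the 1.5-fold threshold. Counting error limits Ubash3a, Crkl and Ubash3b, with 1, 73 and 67 reads in the wild-type-labelled library.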

Other observations

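Close to Ubash3b on chromosome 9, the gene model 4931429I11Rik had 1206 reads in the knockout-labelled library and 0 in the wild-type-labelled one, at least 196-fold higher with 3 reads put in place of that 0. It lies 47.0 kb from Ubash3b, and its exons overlap no other annotated gene. Hspa8, further along the same side, had 20634 and 25578 reads and a log2 ratio of -1.34. These genes were chosen after their values were seen, as the nearest on that side over the floor.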
